A study of Mus musculus with 6 samples.

Results

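The genes described here encode machinery that tethers, docks, fuses and recycles synaptic vesicles, together with presynaptic adhesion proteins and synucleins. They are 45 protein-coding genes chosen by symbol from the RefSeq annotation of GRCm38, out of 21883 on chromosomes 1 to 19, X and Y, and all 45 were found. Open chromatin was mapped by ATAC-seq, in which a transposase cuts accessible DNA, and active regulatory DNA by ChIP-seq for acetylated lysine 27 of histone H3 (H3K27ac). The cells were sorted for GFP from the dorsal root ganglia of E11.5 mouse embryos of the Runx3-BAC-GFP-CB6 transgenic line and labelled as TrkC neurons, so that the sort follows a reporter driven by a Runx3 bacterial artificial chromosome and not TrkC itself. The 6 samples, all of that genotype and stage, are 2 each of ATAC, H3K27ac and input DNA, with 50000 cells per preparation.

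A synaptic vesicle fuses when a vesicle SNARE protein zips up with SNARE proteins of the plasma membrane, and calcium bound by a synaptotagmin triggers the last step. Scaffold proteins of the active zone hold vesicles close to calcium channels, priming factors make them ready, and dynamin and clathrin adaptors take the membrane back. Proprioceptors, which report muscle stretch, release glutamate onto motor neurons in the spinal cord, but at this stage their axons are still growing and those synapses have not formed.

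Both deposited lists give the positions of peaks on mm10 and no height, score or p-value, and each is a consensus over the 2 samples of its assay. No spread between replicates, no depth and no test over samples can be had, so all counts and shares are descriptions. In a bulk sample, a site open in some of the cells and a site weakly open in all cannot be told apart. The lists held 43652 ATAC and 19924 H3K27ac peaks on these chromosomes. H3K27ac lay in or within 1 kb of 6 of 6 sensory neuron markers (Isl1, Pou4f1, Runx3, Ntrk3, Elavl4 and Tubb3) and of 0 of 3 muscle markers, 1 of 4 endothelial markers (Pecam1) and 1 of 3 blood markers (Ptprc). Of the glia and neural crest genes, Sox10 and Foxd3 had H3K27ac there. ATAC peaks were less selective: they lay in or within 1 kb of 6 of 6 sensory neuron, 3 of 3 muscle, 3 of 4 endothelial and 2 of 3 blood markers. At an end they lay at 5 sensory neuron, 2 muscle, 1 endothelial and 1 blood marker. The part of other cells in the peaks of the release genes was not tested.

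The gene starts with the widest acetylation, and starts of the same gene or family without it, show what kind of sequence the peaks lay on. They are the 250 bases before the start that RefSeq lists (GRCm38.p6), read along the gene, with matches in capitals to the GC box GGGCGG, the CCAAT box, the TATA box TATAAA, the core TGACGT of the cyclic AMP element and the Runx core TGTGGT, on either strand. Synpr, the gene of the vesicle protein synaptoporin, has a second listed start inside the gene that lay under a 2037 bp H3K27ac peak, and a first start without any. Sv2c and Sv2b encode related vesicle glycoproteins and differed in the same way. Cplx2 (complexin 2, a SNARE-binding protein) and Snap91 (AP180, a clathrin assembly protein) had the widest H3K27ac peaks over a listed start, 3285 and 2165 bp, and Erc1, an active zone scaffold gene, followed after Synpr and Sv2c (1979 bp) with 1735 bp.
Synpr, second start, chr14:13453708-13453957, + strand, with H3K27ac: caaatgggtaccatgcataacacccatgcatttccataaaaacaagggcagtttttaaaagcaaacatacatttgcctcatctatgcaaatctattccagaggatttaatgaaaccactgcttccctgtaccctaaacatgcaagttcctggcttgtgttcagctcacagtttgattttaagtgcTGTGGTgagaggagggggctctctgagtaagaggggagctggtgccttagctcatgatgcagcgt
Synpr, first start, chr14:13284530-13284779, + strand, without H3K27ac: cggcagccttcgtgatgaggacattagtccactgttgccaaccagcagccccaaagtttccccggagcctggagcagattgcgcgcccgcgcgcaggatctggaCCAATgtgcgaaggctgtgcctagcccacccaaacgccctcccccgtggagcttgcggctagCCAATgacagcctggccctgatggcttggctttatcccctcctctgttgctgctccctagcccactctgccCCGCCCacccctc
Sv2c, chr13:96132578-96132827, - strand, with H3K27ac: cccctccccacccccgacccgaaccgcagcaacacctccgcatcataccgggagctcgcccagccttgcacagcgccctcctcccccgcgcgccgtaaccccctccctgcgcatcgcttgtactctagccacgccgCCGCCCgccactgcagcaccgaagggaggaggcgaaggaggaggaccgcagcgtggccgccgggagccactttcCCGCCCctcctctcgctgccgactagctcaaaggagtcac
Sv2b, most upstream start, chr7:75309263-75309512, - strand, without H3K27ac: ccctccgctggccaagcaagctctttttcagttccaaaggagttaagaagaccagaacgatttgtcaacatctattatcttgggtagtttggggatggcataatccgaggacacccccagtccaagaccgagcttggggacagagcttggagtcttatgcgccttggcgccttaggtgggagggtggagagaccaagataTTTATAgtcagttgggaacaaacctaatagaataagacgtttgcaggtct
Cplx2, chr13:54302306-54302555, + strand, with H3K27ac: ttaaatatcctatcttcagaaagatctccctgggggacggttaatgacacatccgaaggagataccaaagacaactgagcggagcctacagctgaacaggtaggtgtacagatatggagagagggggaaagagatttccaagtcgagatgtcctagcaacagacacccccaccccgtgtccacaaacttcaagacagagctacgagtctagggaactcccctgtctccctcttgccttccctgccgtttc
Snap91, chr9:86880709-86880958, - strand, with H3K27ac: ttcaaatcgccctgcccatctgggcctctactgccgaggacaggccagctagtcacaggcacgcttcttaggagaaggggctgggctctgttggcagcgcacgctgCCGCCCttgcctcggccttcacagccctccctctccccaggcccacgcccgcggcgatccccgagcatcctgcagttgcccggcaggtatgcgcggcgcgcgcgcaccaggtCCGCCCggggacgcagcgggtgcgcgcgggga
Erc1, chr6:119848151-119848400, - strand, with H3K27ac: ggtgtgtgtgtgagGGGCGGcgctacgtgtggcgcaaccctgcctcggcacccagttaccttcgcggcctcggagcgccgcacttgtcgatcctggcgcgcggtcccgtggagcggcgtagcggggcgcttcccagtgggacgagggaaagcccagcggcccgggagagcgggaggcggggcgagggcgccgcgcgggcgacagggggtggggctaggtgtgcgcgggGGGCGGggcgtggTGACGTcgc
The acetylated second start of Synpr held a single CpG in its 300-base window (250 bases before and 50 from the start), against 16 at the first start without H3K27ac. In the other pair the order was opposite, with 32 CpG at the acetylated Sv2c start and 10 at the Sv2b start. Cplx2 had 9, Snap91 35 and Erc1 46, so wide acetylation lay on starts poor and rich in CpG alike. An ATAC peak covered each of these starts except that of Cplx2, where the nearest one began 178 bp downstream.

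Nearly all release genes were open at an end, and most were acetylated there. A gene end means the 1 kb on either side of an annotated end. Of the 45 genes, 43 had an ATAC peak at an end (95.6%), against 60.4% of all protein-coding genes. H3K27ac lay at an end of 34 (75.6%), against 49.3% of all genes, and each of these 34 also had ATAC at an end, a state that 47.8% of all genes had. The other 9 open genes had ATAC alone (12.6% of all genes), none had H3K27ac alone (1.5% of all genes), and Syt3 and Unc13c had neither (38.1% of all genes). The members are long, with a median annotated length of 81960 bp against 17170 bp over all genes, and among all genes of at least 50 kb 75.0% were open and 60.8% acetylated at an end, 59.0% were both, 15.9% had ATAC alone, 1.74% H3K27ac alone and 23.3% neither. Of the 29 members of that length, 28 were open and 22 acetylated. In 32 members an ATAC peak at an end itself overlapped H3K27ac (46.5% of all genes, 57.3% of those of at least 50 kb); Syn1 and Sncg had the peaks side by side. The acetylated count rests on narrow peaks: with only the wider 50% of each list it was 18 (32.5% of all genes). At 13 members another gene's end lay within 2 kb. At Unc13b (Fam214b, 27 bp away) and Sncg (Mmrn2, 835 bp away) the end peaks lay within 1 kb of it and cannot be told apart between the pair, and without such peaks these 2 members lost ATAC and H3K27ac at an end, and no other member did.

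Among genes that were open at an end, acetylation of the release genes was at the background level. It was 79.1% of the 43 open members and 79.1% of the 13219 open genes in all. The members differed from all genes in how many were open. Anywhere in the gene or within 1 kb, all 45 members had ATAC (70.1% of all genes, 92.7% of genes of at least 50 kb) and 39 had H3K27ac (55.5% and 76.7%). The 6 members with no H3K27ac peak there were Syt3, Syt4, Syt5, Syt6, Syt10 and Stx1a, so 5 of the 6 were synaptotagmins. Of the 11 synaptotagmins, 6 had H3K27ac there, near the 55.5% of all genes.

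**Figure D1:**
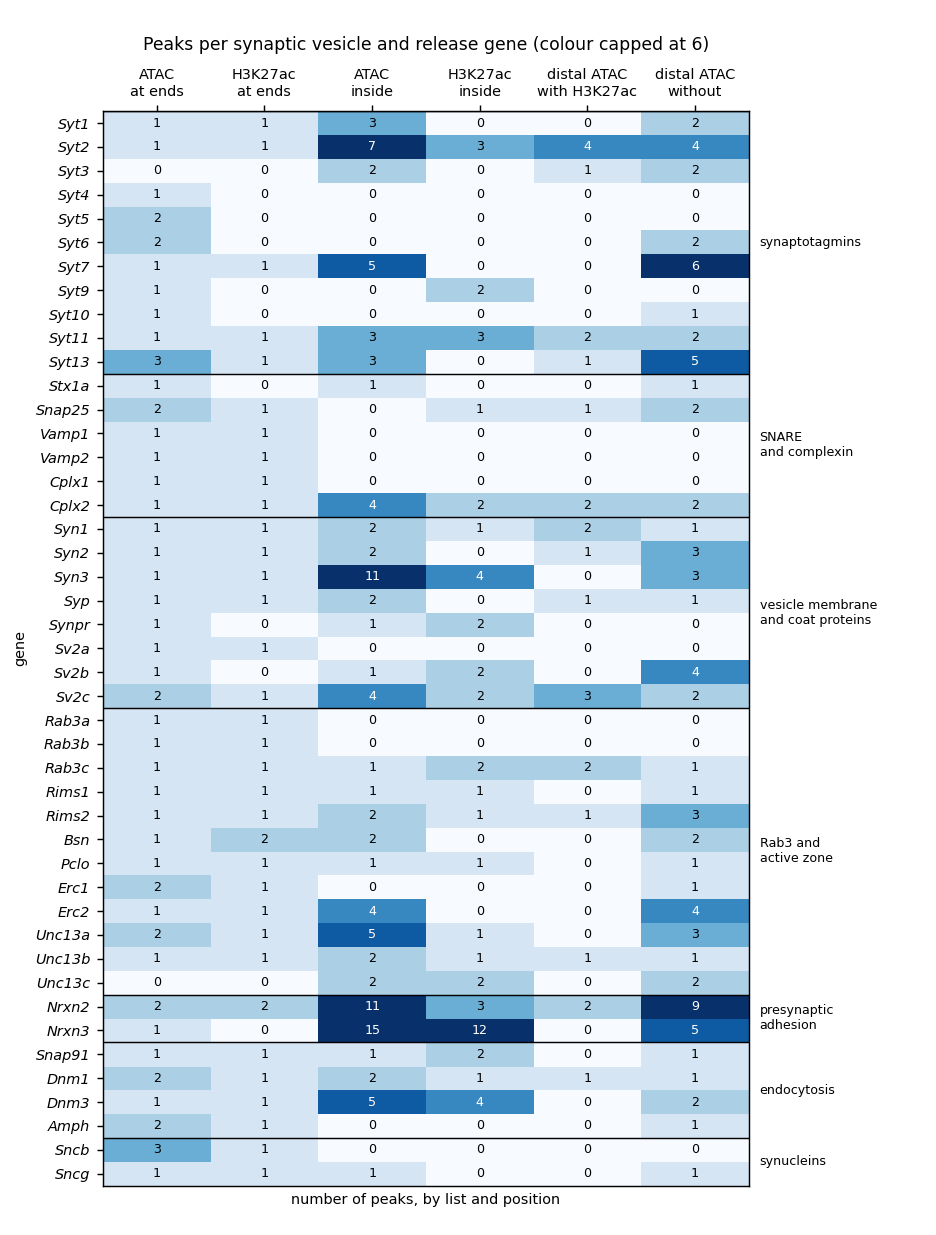
Number of peaks at each of the 45 genes (rows, grouped by role): ATAC and H3K27ac peaks within 1 kb of an annotated end, the same inside the gene away from its ends, and distal ATAC peaks assigned to the gene with and without H3K27ac overlap; colour is capped at 6. The first column is 0 for Syt3 and Unc13c alone, and the inside columns are highest at Nrxn3, with 15 ATAC and 12 H3K27ac peaks.

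The annotated ends of a gene need not be the start used, so the 48 starts that RefSeq lists for 36 of the members were read as well. Syt4, Syt5, Syt7, Syt13, Snap25, Vamp2, Syn3, Rims2 and Nrxn2 have no entry in the table used. All 36 genes had an ATAC peak within 1 kb of a listed start, against 62.3% of all genes with one, and 28 had H3K27ac there, against 51.6%, with both at the same 28 (50.6% of all genes). Counted by start, 42 of the 48 had ATAC and 30 had H3K27ac, against 61.1% and 50.9% of all listed starts. Syt3 and Unc13c, which had no peak at an annotated end, were open at their listed starts: the Unc13c start lay under an ATAC peak of 187 bp, 39035 bp inside the annotated end, and the ATAC peak of Syt3, 104 bp wide, lay 416 bp from its start. Neither carried H3K27ac there.

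Acetylation at release gene starts lay to the downstream side and often stopped short of the start itself. At the 30 listed starts with H3K27ac within 1 kb, the median was 65.5 bp of acetylated DNA in the 1 kb upstream and 640.5 bp downstream. Over all 10827 listed starts with H3K27ac, it was 496 bp upstream and 737 bp downstream. An H3K27ac peak covered the start base at 15 of the 30 member starts, against 83.3% of all acetylated starts. An ATAC peak covered it at 27 (90.0%), against 84.4%. H3K27ac peaks at member ends were also narrower, with a median of 1035.5 bp against 1247.5 bp at all gene ends. The part of peak width in the coverage of starts was not tested. More acetylated DNA lay downstream than upstream at 22 of the 30 (73.3%), close to the 73.1% of all acetylated starts. At starts with no other gene end within 2 kb, a check chosen after seeing the data, it was 72.4% of 29 against 80.6%. The members thus had less acetylated length upstream than all acetylated starts, without a larger share leaning downstream. Some of these starts belong to the same gene and share a peak. Of the starts with none upstream, Amph had a split of 0 bp upstream and 934 bp downstream, Syp of 0 and 922 bp, and Syt1, at its upstream start, of 0 and 734 bp.

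**Figure D2:**
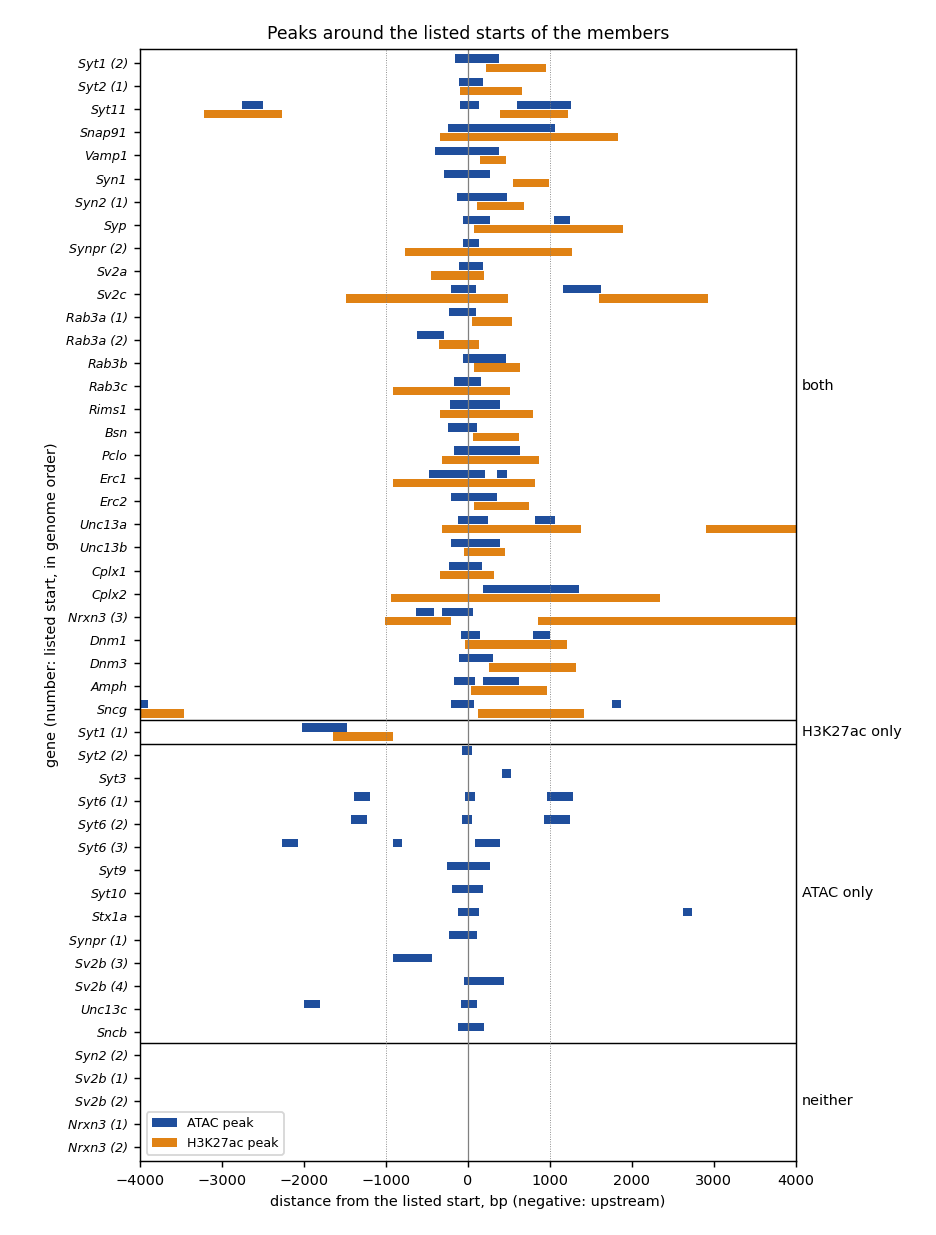
ATAC peaks (blue) and H3K27ac peaks (orange) within 4 kb of each of the 48 listed starts, aligned on the start and read along the gene; dotted lines mark 1 kb, and starts are grouped by the peaks within it. In the top group the orange bars begin right of the start at many genes, among them Syn1, Dnm3, Amph and Syp, and 13 starts have ATAC alone.

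The synaptotagmins are the calcium sensors and their relatives. Of 11, 10 were open at an end, against 60.4% of all genes, and 5 of the 11 were acetylated, near the 49.3% of all genes. Syt2, a fast calcium sensor of release, had the most acetylated DNA of the 11, with 6260 bp in 4 peaks, rank 402 among all genes. A 759 bp H3K27ac peak covered its first start, and peaks of 2695, 1044 and 1762 bp began 19291, 24877 and 27344 bp downstream and held 4 ATAC peaks of 121 to 183 bp. Its second listed start was open, with a 120 bp ATAC peak, and had no H3K27ac. Syt1, the most studied sensor, had a single H3K27ac peak of 734 bp beside its upstream start, and its 3 ATAC peaks inside the 513331 bp gene had none.

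Syt7, a slower sensor linked to delayed release, was acetylated over 995 bp at its end, while none of its 5 ATAC peaks inside the gene overlapped H3K27ac. Syt11, a relative that does not bind calcium in the usual way, had 3036 bp of H3K27ac in 4 peaks, 1 of them at the annotated end and another downstream of the listed start. Syt13, an atypical member, carried the widest H3K27ac peak at any member end, 3641 bp (chr2:92913096-92916736) with 3 ATAC peaks in it. The widest acetylated end thus lay at a gene other than the fast sensors.

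Syt9, a close relative of Syt1 and Syt2, had an open start (ATAC 525 bp) without H3K27ac, but peaks of 398 and 2732 bp began 91924 and 94034 bp downstream, with no ATAC peak in either. Syt4, Syt5, Syt6 and Syt10 were open at an end and had no H3K27ac in the gene. Their ATAC peaks there were 394 bp at Syt4, 289 and 275 bp at Syt5, 117 and 315 bp at Syt6, and 376 bp at Syt10. They lay on either side of the median ATAC width of 333 bp over all member ends, against 364.5 bp over all gene ends.

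The core fusion genes were acetylated at an end except Stx1a, against 49.3% of all genes and 60.8% of genes of at least 50 kb. Vamp2, the main vesicle SNARE, is only 3854 bp long, and 1 H3K27ac peak of 3072 bp (chr11:69087171-69090242) covered 46.4% of the gene with its flanks of 1 kb. Vamp1, its close relative, had a 321 bp H3K27ac peak that overlapped a wider ATAC peak of 788 bp. Snap25, a plasma membrane SNARE, had a 1002 bp H3K27ac peak holding 2 ATAC peaks at the end with the lower coordinate, and an acetylated distal ATAC peak of 582 bp 34280 bp outside it. Stx1a, the partner of Snap25 at the plasma membrane, had an ATAC peak of 253 bp over its start, another of 115 bp inside, and no H3K27ac. The complexins, which bind the assembled SNAREs, differed in extent: Cplx2 had 5248 bp of H3K27ac in 3 peaks and 2 acetylated distal ATAC peaks, and Cplx1 had 649 bp in 1 peak and no distal peak.

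Genes of the vesicle membrane and of the synapsin coat all had ATAC at an end, 8 of 8, and 6 had H3K27ac there. The shares were 60.4% and 49.3% over all genes, and 75.0% and 60.8% over genes of at least 50 kb. Syn1, Syn2 and Syn3 encode the synapsins, which tether vesicles to each other. Syn1 had an ATAC peak of 558 bp over its start, and its H3K27ac, 439 bp, began 549 bp downstream and did not overlap it, and a 946 bp peak lay near the far end. Its 2 acetylated distal ATAC peaks lay inside the neighbouring gene Araf and would be given to that gene by position. Syn2 had 579 bp of H3K27ac at its first listed start and neither peak at its second. Syn3 spans the whole of Timp3, and 1 of its 4 inside H3K27ac peaks, 1391 bp, lay at an end of that gene.

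Syp (synaptophysin, an abundant vesicle protein) had 1814 bp of H3K27ac over the first part of the gene with 2 ATAC peaks in it. The Sv2 genes encode vesicle glycoproteins. Sv2c had 3887 bp of H3K27ac in the gene and 3 acetylated distal ATAC peaks, 1 of them 48141 bp upstream under an H3K27ac peak of 1948 bp. Sv2a had 658 bp of H3K27ac and an ATAC peak of 293 bp at its start, and no further peak in the gene. Sv2b was open at its upstream start (ATAC 484 bp) without H3K27ac, while 5 distal H3K27ac peaks of 381 to 1710 bp were assigned to it, none of which held an ATAC peak. Synpr had H3K27ac at its second start and none at the first, as given beside its sequences.

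The Rab3 and active zone genes were nearly all marked, with both peaks at an end of 11 of 12. Over all genes that share was 47.8%, and over genes of at least 50 kb 59.0%. All 12 had H3K27ac somewhere in the gene or within 1 kb, against 55.5% and 76.7%. Rab3 proteins are GTPases of the vesicle surface. Rab3a had 487 bp of H3K27ac, Rab3b 561 bp, and Rab3c 2309 bp in 3 peaks with 2 acetylated distal ATAC peaks. Rims1 and Rims2 encode scaffolds that bind Rab3. Rims2 had a 2410 bp H3K27ac peak over the end with the lower coordinate, and Rims1 had 1126 bp at its start and 751 bp deep inside, over an ATAC peak of 838 bp 272155 bp from the start.

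Bsn and Pclo (bassoon and piccolo, the largest active zone scaffolds) had 558 and 1184 bp of H3K27ac at their starts. A second H3K27ac peak at the far end of Bsn, 1173 bp, lay within 1 kb of an end of Apeh. Erc1 and Erc2 encode scaffolds of the ELKS family and had 1735 and 677 bp, with no acetylated distal ATAC peak at either. Unc13a and Unc13b encode priming factors. Unc13a had H3K27ac peaks of 1702 bp at its start and 1351 bp inside it. At Unc13b a 2820 bp peak at the annotated end is shared with Fam214b, whose end lies 27 bp away, and the listed start of Unc13b had its own 490 bp peak. Unc13c, also a priming factor gene, had 2 H3K27ac peaks of 384 and 334 bp, 287550 and 215209 bp from its listed start, and none at it.

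The neurexins, presynaptic adhesion proteins that meet partners across the synapse, carried much of their acetylation inside the gene. Nrxn3 is the longest member, 1612235 bp, and had 14858 bp of H3K27ac in 12 peaks, rank 74 among all genes, with none at an annotated end. Its first and second listed starts had neither peak within 1 kb. The third listed start, at position 89812483 of chromosome 12, was open over 379 bp, with an 808 bp H3K27ac peak ending 206 bp upstream and the widest H3K27ac peak in any member, 4567 bp (chr12:89813332-89817898), beginning 849 bp downstream. Neurexin genes are known to make a long alpha form and a shorter beta form from an internal promoter. Nrxn2 was acetylated at both annotated ends, over 773 and 1342 bp, and held 3 more H3K27ac peaks and 11 ATAC peaks inside, 2 of which overlapped H3K27ac.

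**Figure D3:**
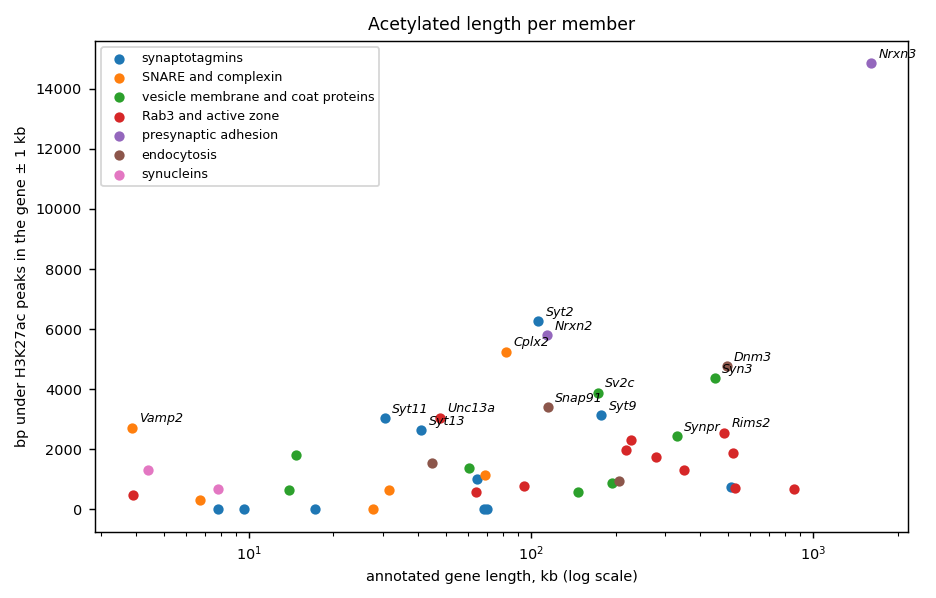
Annotated length of each member in kb (log scale) against the bp under H3K27ac peaks in the gene and 1 kb on either side, coloured by role, with the members highest on that scale named. Nrxn3 stands highest at 14858 bp, and short genes such as Vamp2, with 2715 bp, reach the level of genes many times longer.

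All 4 endocytosis genes had both peaks at an end, against 47.8% of all genes and 59.0% of genes of at least 50 kb. Snap91 had a 2165 bp H3K27ac peak and an ATAC peak of 1303 bp at its start, the widest ATAC peak at any member end, and 2 more H3K27ac peaks of 454 and 784 bp inside. Dnm1 and Dnm3 encode dynamins, GTPases that cut vesicles from the membrane. Dnm1 had 1235 bp of H3K27ac at its start, and Dnm3 had 1069 bp there and 4 peaks inside, of which the widest, 1667 bp, held an ATAC peak. Amph (amphiphysin, which recruits dynamin) had 934 bp at its start alone. The synuclein genes differed in where the mark lay. Sncg, known for its abundance in sensory neurons, had 1296 bp of H3K27ac beginning 124 bp downstream of its start, next to an ATAC peak of 282 bp that it did not overlap. Sncb had an open start (ATAC 307 bp) without H3K27ac, and a 670 bp H3K27ac peak with 2 ATAC peaks at its far end.

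Inside the genes, over 1 kb from their own ends, 22 of the 45 members had H3K27ac (48.9%), against 15.4% of all genes and 43.2% of genes of at least 50 kb. Among the 29 members of at least 50 kb it was 19 (65.5%). With the wider 50% of each list it was 9 of the 45, against 8.08% of all genes. ATAC peaks lay inside 30 members (66.7%), against 32.0% of all genes and 68.5% of long genes. The median member had 1303 bp of H3K27ac in the gene and its flanks, against 539 bp over all genes, and 206 bp with the wider 50% of each list. The 29 long members had a median of 1735 bp, against 1346 bp over genes of at least 50 kb. The gap in median acetylated length was smaller between long genes than over all. The 29 long members were themselves longer, with a median length of 194369 bp against 98473 bp over genes of at least 50 kb. These comparisons are thus not matched for length, and no finer match was made.

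Distal ATAC peaks, over 1 kb from every gene end, were each given to the closest gene end up to 100 kb away. At least 1 was given to 34 members (75.6%), against 46.0% of all genes and 72.9% of genes of at least 50 kb. There were 107, of which 25 overlapped H3K27ac (23.4%), against 22.4% of the 24358 assigned over all genes, so a distal site of a release gene was acetylated about as often as any other. At least 1 acetylated distal peak was assigned to 15 members (33.3%), against 15.4% of all genes and 31.1% of genes of at least 50 kb, and with the wider 50% of each list to 3 members (7.95% of all genes). A distal H3K27ac peak, with or without ATAC, was given to 21 members (46.7%), against 20.7% of all genes and 44.5% of long ones. Syt2 had 4 acetylated ATAC peaks and Sv2c 3, while Syt11, Syn1, Rab3c, Cplx2 and Nrxn2 had 2 each. Of the 107 peaks, 72 lay inside the member itself. The rule leaves out deep intronic peaks. With peaks inside a gene given to that gene, 17 members had an acetylated distal peak, 31 peaks in all, against 15.7% of all genes. Nrxn3 then had 6 in place of 0, and Synpr, Rims1 and Dnm3 had 1 each in place of 0. Syn1 had 0 in place of 2, and Syt3 had 0 in place of 1.

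**Figure D4:**
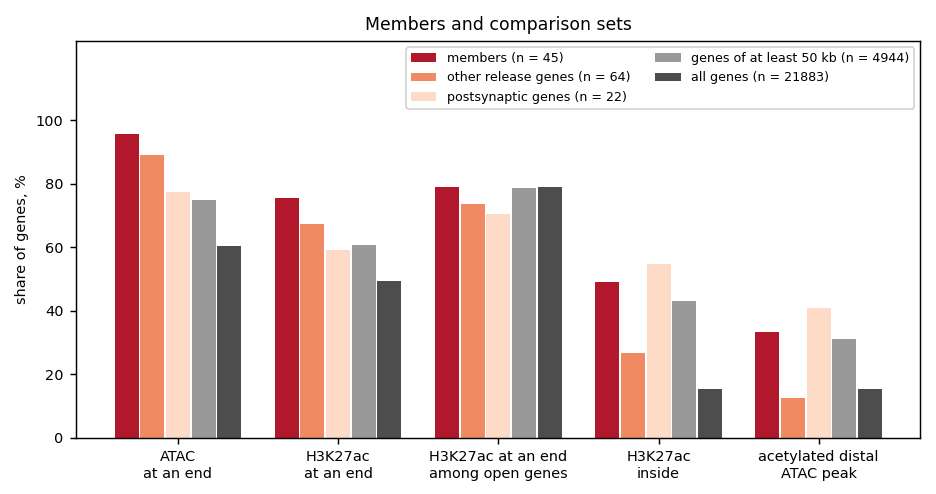
Share of genes in percent with each feature, for the 45 members, 64 other release genes, 22 postsynaptic genes, all genes of at least 50 kb and all protein-coding genes. The members are highest for ATAC at an end (95.6%), and in the middle group of bars, H3K27ac among open genes, members and all genes both stand at 79.1%.

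Other genes of the release pathway showed a like pattern at their ends. Of 64, 57 were open at an end (89.1%, against 60.4% of all genes) and 43 acetylated (67.2%, against 49.3%). An acetylated distal ATAC peak was given to 8 (12.5%), below the 15.4% of all genes and the 33.3% of the members. These 64 genes are shorter than the members, with a median length of 34582 bp against 81960 bp. Over genes of at least 50 kb the share with such a peak was 31.1%, and the lists were not matched for length. Slc17a6, a vesicular glutamate transporter gene, had 5 such peaks and 11551 bp of H3K27ac, and Syt16 and Napa had 2 each. Of 22 postsynaptic scaffold and adhesion genes, whose products act on the receiving side, 17 were open (77.3%) and 13 acetylated at an end (59.1%). These shares were above those of all genes but near the 75.0% and 60.8% of genes of at least 50 kb. The median length of these 22 genes was 82723.5 bp. Among them 9 had an acetylated distal ATAC peak (40.9%, against 15.4% of all genes and 31.1% of genes of at least 50 kb). Dlg4, the gene of the scaffold PSD-95, had 3. The genes of that list with no ATAC at an end were Dlg4, Shank3, Nlgn3, Gphn and Lrrtm1. No difference between these lists was tested.

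CpG content was higher at listed starts with peaks than at those without. It is given as the number of CpG observed over that expected from the C and G content of the 300-base window. The 29 member starts with both peaks within 1 kb had a median of 0.713 (range 0.063 to 1.123). The 13 with ATAC alone had 0.595 (0.230 to 1.038), and the 1 with H3K27ac alone, at Syt1, had 0.415. The 5 with neither had a median of 0.213 (0 to 0.353). Over all listed starts the medians were 0.806 with both peaks, 0.559 with ATAC alone and 0.185 with neither. The GC box was found at 33 of 48 member starts (68.8%), against 46.2% of all 21262 listed starts and 69.6% of those with both peaks. The CCAAT box was found at 27.1% of member starts and 38.2% of all, and the TATA box at 6.25% and 12.6%. The cyclic AMP core was at 8.33% and 8.49%, and the Runx core at 14.6% and 15.0%. Among all listed starts with both peaks, the CCAAT box was at 38.2% and the TATA box at 5.49%. The cyclic AMP core was at 13.0% of those and the Runx core at 10.8%. The Ebf palindrome, TCCC and GGGA with 2 bases between, and the RE1 core, CAGCACC and GGACAG with 2 bases between, were in none of the 48 windows, and in 0.959% and 0.0470% of all. Such matches are letters in a window and not binding sites.

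**Figure D5:**
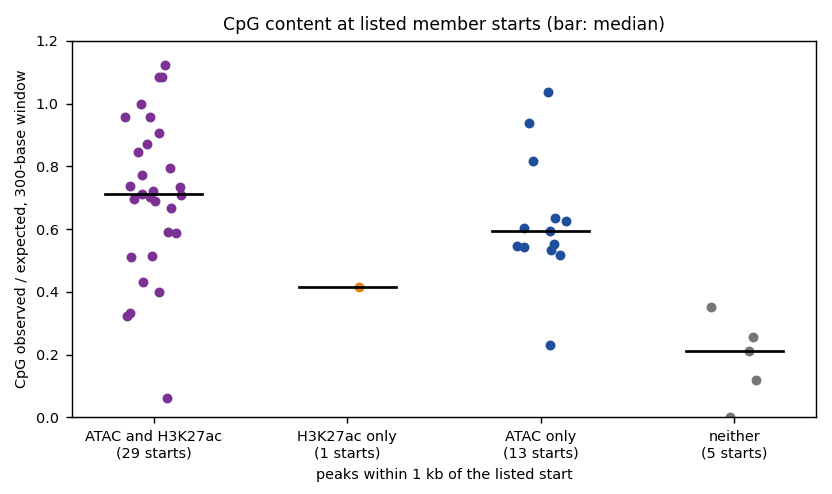
CpG observed over expected in the 300-base window of each of the 48 listed member starts (points; bar, median), grouped by the peaks within 1 kb. The 5 starts with neither peak lie at or below 0.353, and the groups with both peaks and with ATAC alone overlap.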

How the data were processed

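ATAC, H3K27ac and input DNA were measured in sorted neurons, with 2 samples per group. The submitters' processing notes name cutadapt 1.18, Bowtie2 2.3.5.1, MACS2 and bedtools and the build mm10; thresholds and the way the consensus was formed are not given in the sources used here. The deposited files hold peak start and end positions in bp, 1 consensus list per assay made by the authors, with starts counted from 0; positions are printed counted from 1. Depth is unknown, replicates cannot be compared, and the input is not used. The lists hold 43739 ATAC and 19928 H3K27ac peaks, and those off chromosomes 1 to 19, X and Y were left out.

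Overlap means at least 1 shared bp. Inside peaks have their midpoint in the gene and lie over 1 kb from its ends. Gene starts and sequences are RefSeq's (GRCm38.p6); 36 of 45 members matched. The scripts used Python 3.11.15, numpy 2.4.6 and pandas 2.3.3, and were tested on planted peaks with known answers. The members and lists were chosen with earlier results of these data known, so no list test was made. All 45 members are accounted for. The printed promoters, of 6 members, are those with the widest H3K27ac over a listed start and starts of the same gene or family without it. From the other lists, genes with the most acetylated distal peaks and exceptions of 5 or fewer were named. Alternatives were the window, the assignment distance and rule, the overlap, the width of peaks, listed starts alone and genes apart from neighbours. Some markers of glia and neural crest are not reported here.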

Additional observations from a re-analysis of the deposited data

How the results depend on the processing

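Most counts moved little. With windows of 0.5 kb and 2.5 kb, ATAC was at an end of 41 and 44 members and H3K27ac at 32 and 35, against 43 and 34 at 1 kb. The shares of all genes with these windows were 56.5% and 66.2% for ATAC and 47.2% and 52.1% for H3K27ac. Of the 32 members with ends over 2 kb from other ends, 30 were open and 23 acetylated, against 51.3% and 39.4% of all such genes. Cplx2 and Rab3c lost ATAC and Dnm3 and Syn1 lost H3K27ac at 0.5 kb, while Syt3 gained ATAC and Synpr H3K27ac at 2.5 kb.

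The width of peaks mattered most. With the wider 50% of each list, ATAC stayed at an end of 43 members (54.3% of all genes). H3K27ac was then at an end of only 18 (32.5% of all genes), and both lists were at 18 (30.4% of all genes). H3K27ac was then inside 9 members (8.08% of all genes). Acetylated distal peaks were assigned to 3 members (7.95% of all genes), 5 peaks in all, and the median acetylated length was 206 bp. The acetylated distal share of the members was thus above that of all genes with all peaks and not with the wider ones. This setting holds fewer peaks by construction, for the members and for all genes alike. The cause of the change was not tested.

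Counting all distal ATAC peaks gave 34 members (46.0% of all genes) and 107 peaks. Assignment within 500 kb gave an acetylated distal peak to 19 members (16.4% of all genes). With 50% of the ATAC peak covered by H3K27ac it was 11 members (14.0% of all genes). Among the 64 other release genes, the wider 50% gave 23 with H3K27ac and 22 with both, against 32.5% and 30.4% of all genes. Of the 41 with ends over 2 kb from other ends, 37 were open and 28 acetylated. The shares of all such genes were 51.3% and 39.4%. Among the 22 postsynaptic genes, the wider 50% gave 8 with H3K27ac and 7 with both, against the same 32.5% and 30.4%. Counting peaks anywhere in the gene or within 1 kb gave 19 with both, against 54.8% of all genes.

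Some checks were chosen after seeing the data. Leaving out peaks within 1 kb of another gene's end took ATAC and H3K27ac at an end from Sncg and Unc13b. At starts with no other gene end within 2 kb, the median H3K27ac upstream was 87 bp at 29 member starts. Over all 7886 such starts it was 418.5 bp. Downstream, the medians were 616 and 754 bp. No paired analysis was possible because each assay has 1 consensus list and replicates carry no values of their own. For the same reason no replicate could be left out.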
